A study of Mus musculus with 6 samples.

Results

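The human mitochondrial genome was followed here through the counts of its 37 genes in liver libraries that held RNA of both human tumor cells and mouse cells. The members were all genes that the human count table places on chrM (GRCh38), 37 of 62753 genes listed, and comprised 13 protein genes, 2 ribosomal RNA (rRNA) genes and 22 transfer RNA (tRNA) genes. The tissue was liver of athymic BALB/c (nu/nu) males, in which human hepatocellular carcinoma (HCC) cells of the QGY-7703 line had been implanted at 6 weeks of age. At 1 week after implantation, the mice received an adeno-associated virus of serotype 8 (AAV8) through the tail vein, carrying either siControl (genotype WT in the labels, 3 libraries) or siAATF (genotype KD, 3 libraries), a small interfering RNA to Aatf. They were followed for 3 weeks after this injection. The paper describes the small interfering RNA as specific to mouse Aatf, so that the human tumor cells were not the intended cells of knockdown. The vector used the thyroxine-binding globulin promoter, which is active in hepatocytes. All 6 libraries shared the host strain, the implant and the virus backbone. The comparison addressed whether the tumor's transcripts differed when Aatf was targeted in the surrounding mouse liver. The sources used here do not say whether the 3 libraries of a group came from separate mice, and the p-values below therefore measure only the spread between these libraries.

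The mitochondrial genome is a small circular DNA that is transcribed from both strands into long precursors. The tRNAs lie between most of the other genes and are cut out of the precursor, which releases the messenger RNAs and the rRNAs. The protein genes all encode subunits of oxidative phosphorylation, with 7 genes for complex I (MT-ND1 to MT-ND6 and MT-ND4L), 1 for complex III (MT-CYB), 3 for complex IV (MT-CO1 to MT-CO3) and 2 for complex V (MT-ATP6 and MT-ATP8), while MT-RNR1 and MT-RNR2 are the RNAs of the small and large subunits of the mitochondrial ribosome. In the annotation, 28 of the genes are on the plus strand and 9 on the minus strand, the latter being MT-ND6 and 8 tRNAs. Hepatocytes are rich in mitochondria, and mitochondrial RNA is often a large part of their RNA.

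The depth of the human part differed between the groups. The siControl libraries held 35811453, 27159173 and 53138655 human counts and the siAATF libraries 417614, 258490 and 411976, so that 98.1 to 99.2% of the siControl counts but 0.972 to 2.14% of the siAATF counts were human. Each siAATF value below therefore rests on fewer counts, with 24853 to 59370 human mitochondrial counts per library against 2933806 to 6188750 in siControl. Mouse Aatf itself was counted 12, 1 and 23 times in the siControl libraries and 384, 109 and 340 times in the siAATF libraries, which gave 17.1, 4.69 and 25.2 against 9.02, 9.21 and 9.72 CPM of mouse counts (counts scaled to a total of 1000000 counts of that species), and the groups overlapped. The summed mouse marker levels also moved with the group, with hepatocyte markers (Alb, Apoa1, Ttr, Cps1 and Cyp2e1) from 3521 to 8946 mouse CPM in the siControl libraries and from 11994 to 51680 in the siAATF libraries, endothelial markers at 357 to 601 and 12.8 to 59.0, fibroblast markers at 9296 to 15284 and 11.6 to 43.3, and macrophage markers at 540 to 1322 and 5.24 to 18.7. None of the 14 mouse markers was at 0 in any library, and the part of this difference in tissue in the results below was not tested.

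The human mitochondrial genes took a similar range of the human counts in both groups. Their share of human counts was 8.19, 21.7 and 11.6% in siControl and 9.91, 9.61 and 14.4% in siAATF. The siControl mean was 13.9% ± 7.04 (SD, n = 3) and the siAATF mean 11.3% ± 2.69 (SD, n = 3), a difference of -2.55 percentage points (two-sided exact permutation test, p = 0.7, where 0.1 is the smallest p that 3 against 3 libraries allow). All 3 siAATF values lay within the siControl range, and the highest value of all was siControl replicate 2, without which the difference was 1.39 points in the other direction. As a share of human and mouse counts together, the difference was -13.5 points (exact permutation p = 0.1), a value that also carries the smaller human part of the siAATF libraries. The 95% Wilson interval of each share covers counting error only and was narrow at this depth, at 9.50 to 9.73% in the shallowest library, siAATF replicate 2, so that counting error was small beside the spread between libraries. In bulk tissue, fewer mitochondria-rich cells and less mitochondrial RNA per cell cannot be told apart. The mouse mitochondrial genes of the same libraries took 4.04, 10.5 and 6.91% of mouse counts in siControl and 25.7, 56.1 and 20.8% in siAATF, 2 groups that did not overlap.

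**Figure D1:**
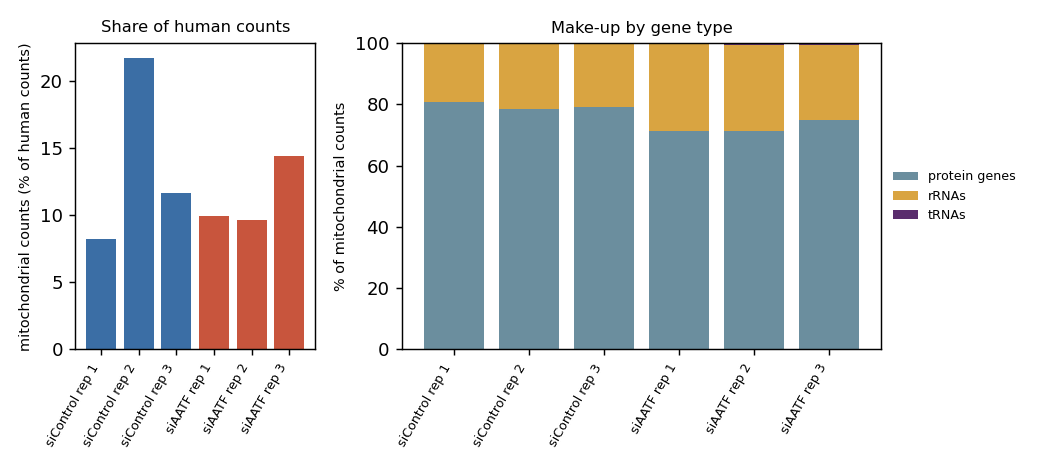
Left, human mitochondrial counts as a percent of human counts in each library. Right, the make-up of these counts by gene type, as a percent of mitochondrial counts; the siControl shares on the left, from 8.19 to 21.7%, enclose all 3 siAATF shares, and the rRNA part on the right is larger in each siAATF library than in any siControl library.

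Within the mitochondrial counts, the rRNAs had a larger share and the protein genes a smaller share in the siAATF libraries. The rRNAs took 19.0, 21.4 and 20.6% of mitochondrial counts in siControl and 28.4, 28.1 and 24.5% in siAATF, with means of 20.3% ± 1.23 and 27.0% ± 2.16 (SD, n = 3 each). The protein genes took 80.7, 78.4 and 79.2% in siControl and 71.3, 71.4 and 75.0% in siAATF, with means of 79.4% ± 1.19 and 72.6% ± 2.14. The groups did not overlap for either share, and the exact permutation p was 0.1 for each, the smallest that this design can give, so that neither could pass 0.05. The 3 shares by type add up to the whole and are not independent of each other. In the mouse counts of the same libraries, the rRNA share of mitochondrial counts was 13.9, 29.2 and 24.9% in siControl and 21.7, 34.4 and 22.0% in siAATF, which overlapped.

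Both rRNAs contributed to this shift in similar proportion. MT-RNR2 (chrM:1671-3229) took 16.6, 18.7 and 17.8% of mitochondrial counts in siControl and 24.4, 24.4 and 21.5% in siAATF. MT-RNR1 (chrM:648-1601) took 2.38, 2.72 and 2.74% in siControl and 3.99, 3.72 and 2.99% in siAATF. For both genes each siAATF value exceeded all siControl values, although siAATF replicate 3 was the closest to siControl in each case. The per-length ratio of MT-RNR2 to MT-RNR1 was 4.15 ± 0.144 in siControl and 4.06 ± 0.334 in siAATF (SD, n = 3 each; exact permutation p = 0.7), 2 groups that overlapped. Relative to all human genes, neither rRNA passed the test over the 6 libraries, but without siControl replicate 2 their log2 fold changes were 0.60 and 0.59, with unadjusted edgeR p-values of 0.00376 and 0.00420 that did not pass after adjustment.

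Of 20 gene shares compared between the groups (the 15 protein and rRNA genes and the 5 tRNAs with the most counts), 8 did not overlap between siControl and siAATF, 4 higher and 4 lower in siAATF, each with an exact permutation p of 0.1. These 8 genes were among the 18 mitochondrial genes that reached 10 counts in each library. Among all 4243 human genes with that depth, 2.76% did not overlap when counted per mitochondrial count, but for genes outside the mitochondrial genome that scale also carries the spread of the mitochondrial share between libraries. Counted per human count, 2 of the 18 did not overlap, MT-TN (higher) and MT-ATP8 (lower), against 22.1% of the 4243 genes. Over all 21299 genes with 10 or more counts in all, most of which did not reach 10 counts in each library, 22.0% did not overlap per mitochondrial count and 30.3% per human count, against 17 and 11 of the 33 mitochondrial genes in that set. In that set, 8 tRNA genes had 0 counts in all 3 siAATF libraries and were counted in each siControl library. Their non-overlap on both scales can follow from the low siAATF depth alone, so the 17 and 11 are no result about the mitochondrial genes.

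The 4 genes with lower shares in siAATF were all protein genes, and the 2 with the largest ratio between the group means were the shortest, while in percentage points MT-CO1 differed most. MT-ND4L (chrM:10470-10766, 297 bases), a membrane subunit of complex I, took 1.25, 0.968 and 1.32% of mitochondrial counts in siControl and 0.404, 0.527 and 0.878% in siAATF. The siAATF values spread widely, with replicate 3 near the lowest siControl library. MT-ATP8 (chrM:8366-8572, 207 bases), a small membrane subunit of the ATP synthase, took 0.873, 0.562 and 0.721% in siControl and 0.399, 0.475 and 0.483% in siAATF. The ratio of the siControl to the siAATF mean was 1.95 for MT-ND4L and 1.59 for MT-ATP8. Each of these genes overlaps its larger neighbor, MT-ND4L by 7 bases with MT-ND4 and MT-ATP8 by 46 bases with MT-ATP6, and the sources used here do not say how reads over 2 genes were counted. MT-ND3 (346 bases), the next shortest protein gene, took 1.02, 0.854 and 1.08% in siControl and 1.02, 1.03 and 1.03% in siAATF, so that the lower shares were not shared by every short gene.

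Each short gene was also compared with the neighbor with which it shares a messenger RNA. MT-ND4, the larger partner of MT-ND4L, was 2.24, 2.44 and 2.13 times as high per length in siControl and 5.43, 4.28 and 2.76 times in siAATF. MT-ATP6 was 2.33, 3.50 and 2.60 times as high per length as MT-ATP8 in siControl and 4.49, 3.80 and 3.99 times in siAATF. Neither ratio overlapped between the groups (exact permutation p = 0.1 each, among 7 ratios compared). Where along the transcript these differences arise, and the part of the overlapping bases in them, was not tested.

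MT-CO1 and MT-ND2 also had lower shares, with differences of -3.13 and -0.481 percentage points and ratios of the siControl to the siAATF mean of 1.19 and 1.18. MT-CO1 (chrM:5904-7445), the catalytic subunit of cytochrome c oxidase, took 20.5, 19.7 and 19.0% of mitochondrial counts in siControl and 15.8, 17.0 and 17.1% in siAATF. MT-ND2 (chrM:4470-5511), a complex I subunit, took 3.00, 3.28 and 3.37% and 2.56, 2.74 and 2.91%. These shares depend on the larger rRNA share: taken over protein-coding counts alone, the difference of MT-CO1 was -1.97 points, without overlap, and that of MT-ND2 was -0.285 points, with overlap (exact permutation p = 0.3). MT-CO1 per length was 1.25, 1.07 and 1.08 times as high as MT-RNR2 in siControl and 0.653, 0.706 and 0.802 times in siAATF, with no overlap (exact permutation p = 0.1), so that the order of these 2 abundant genes was opposite in the 2 groups. This non-overlap was fixed by the shares of the 2 genes, lower for MT-CO1 and higher for MT-RNR2 in each siAATF library, and is no separate test.

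As shares of all mitochondrial counts, the other 9 protein genes overlapped between the groups. MT-CO3, a core complex IV subunit, took 12.1, 14.3 and 12.9% in siControl and 14.2, 12.9 and 12.4% in siAATF (exact permutation p = 0.9). MT-CO2, which carries the copper site that receives electrons from cytochrome c, took 5.89, 7.33 and 6.88% and 8.16, 6.85 and 6.75% (p = 0.6 by the same exact test). MT-ATP6, the proton channel subunit of complex V, took 6.68, 6.47 and 6.17% and 5.89, 5.93 and 6.34% (exact p = 0.2). Among the complex I genes, MT-ND1 ranged from 4.32 to 4.95% in siControl and from 4.29 to 4.57% in siAATF, and MT-ND4 from 10.97 to 13.03% and from 10.2 to 11.3%. MT-CYB, the cytochrome b of complex III, ranged from 5.38 to 6.39% and from 4.95 to 5.71%.

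Taken over protein-coding counts alone, 5 of the 13 protein genes did not overlap between the groups, each with an exact permutation p of 0.1. The share of all human genes without overlap was not computed on this scale, so this count is a description only. MT-CO1, MT-ATP8 and MT-ND4L were lower in siAATF on this scale, as they were over all mitochondrial counts. MT-ND6 took 2.12, 1.22 and 1.59% of protein-coding counts in siControl and 2.46, 2.40 and 2.21% in siAATF, and MT-ND3 took 1.26, 1.09 and 1.36% and then 1.43, 1.45 and 1.37%, both higher by a narrow margin.

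MT-ND5 and MT-ND6, which lie next to each other on opposite strands, differed in their spread. MT-ND5, a proton-pumping subunit of complex I, took 4.02, 2.65 and 3.16% in siControl and 1.64, 2.48 and 4.02% in siAATF, so that the lowest siAATF library and the highest differed by more than the groups did. MT-ND6, the only protein gene on the minus strand, took 1.71, 0.957 and 1.26% in siControl and 1.75, 1.71 and 1.66% in siAATF, with coefficients of variation of 29.0% and 2.85%. The siControl replicate 1 value of MT-ND6 lay within the siAATF range, and the siControl replicate 2 value was the lowest. The summed share of the 9 minus-strand genes was 2.01, 1.18 and 1.49% in siControl and 2.07, 2.16 and 2.08% in siAATF, with means of 1.56% ± 0.419 and 2.10% ± 0.0506 (SD, n = 3 each), which did not overlap (exact permutation p = 0.1).

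Summed by respiratory complex, the protein genes kept a similar balance. Of the protein-coding mitochondrial counts, complex IV genes took 49.8% ± 2.63 in siControl and 51.1% ± 2.66 in siAATF, and complex I genes 33.9% ± 2.18 and 32.8% ± 2.21 (SD, n = 3 each). The single complex III gene took 7.26% ± 0.575 and 7.19% ± 0.370, and the complex V genes 9.01% ± 0.327 and 8.96% ± 0.133. All 4 shares overlapped between the groups, with exact permutation p-values of 0.6 for complexes I and IV and 0.9 for complexes III and V. The differences of the complex III and V shares, -0.071 and -0.048 percentage points, changed sign when single libraries were left out. Those of complexes I and IV, -1.17 and 1.29 points, kept their sign but not their size. They ran from -2.43 to -0.118 points for complex I and from 0.086 to 2.76 for complex IV.

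**Figure D2:**
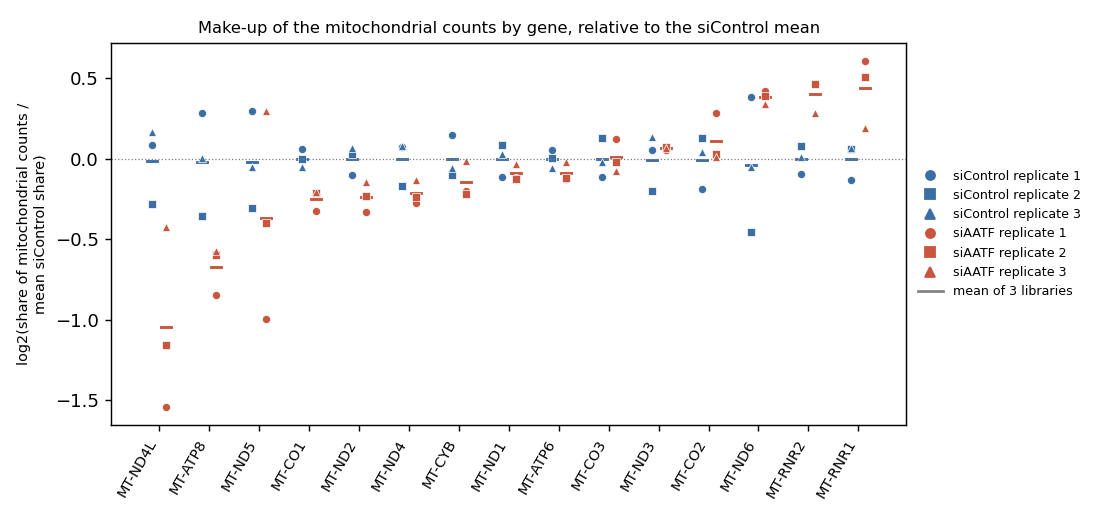
Share of mitochondrial counts of each protein and rRNA gene on a log2 scale relative to the siControl mean share, by library, with genes ordered by the ratio of group means and a line at the mean of the 3 log2 values. MT-ND4L and MT-ATP8 sit lowest in siAATF and the rRNAs highest, while MT-CO3, MT-ND3 and MT-CO2 of both groups lie around 0.

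Levels of different genes were compared as human CPM per kilobase of gene. On this per-length scale MT-CO3 ranked highest of the 15 protein and rRNA genes in all 6 libraries, at 12598, 39694 and 19098 in siControl and 17965, 15830 and 22735 in siAATF. MT-ND5 ranked lowest in all 6, at 1817, 3177 and 2030 and at 897, 1315 and 3199. The ratio between them ran from 6.93 in siControl replicate 1 to 20.0 in siAATF replicate 1, and the groups overlapped (exact permutation p = 0.6). Genes of 1 precursor on the plus strand therefore differed more from each other than either differed between the groups.

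Between these ends, the order was alike in the 2 groups apart from a few genes. MT-CO1 ranked second in each siControl library, at 10918 to 27785, and MT-RNR2 ranked second in each siAATF library, at 15058 to 19906. MT-CO2, MT-ATP6 and MT-ND4 took ranks 3 to 6 with changes of order between libraries, and their ranges of 7050 to 23315, 8038 to 20655 and 7299 to 17312 over the 6 libraries overlapped throughout. MT-ND1 and MT-CYB held ranks 7 and 8 in every library, with ranges of 3700 to 11263 and 4167 to 10263 that did not separate them. The lower levels were those of MT-ND2, MT-ND3, MT-ATP8, MT-ND4L, MT-ND6 and MT-RNR1, whose means lay between 3145 and 5235 in siControl and between 2437 and 4133 in siAATF. In this lower set MT-ND4L held ranks 10, 9 and 9 in siControl and 14, 14 and 12 in siAATF, and MT-RNR1 held 14, 11 and 13 and then 9, 9 and 10.

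**Figure D3:**
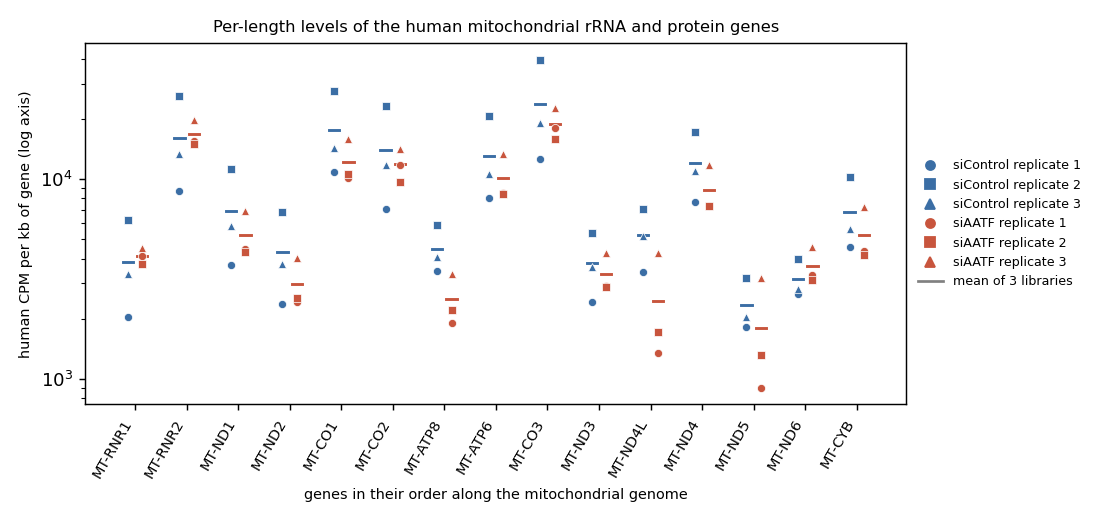
Human CPM per kilobase of gene (log axis) of the 15 protein and rRNA genes in their order along the mitochondrial genome, with 1 point per library and a line at each group mean. MT-CO3 is the highest and MT-ND5 the lowest gene in each library, and siControl replicate 2 is high for most genes.

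Mitochondrial genes were next compared between the groups relative to all human genes. The test across all features was edgeR's quasi-likelihood test on the 21299 human genes with 10 or more counts in all. A gene was called where p was under 0.05 before adjustment and the log2 fold change was 2 or more in size. By it, 4.38% of all genes tested were called in either direction and 3.85% were called higher in siAATF, and the median log2 fold change of all genes was -0.19. Of the 37 mitochondrial genes, 33 passed the filter on low counts, MT-TS1, MT-TQ, MT-TW and MT-TA did not, and 1 was called. This was the lysine tRNA MT-TK, higher in siAATF, which was counted 21, 5 and 22 times in the siControl libraries and once in each siAATF library. Its ratio of summed counts per human count was 6.67 with an exact 95% interval of 1.33 to 20.7 for counting error, its log2 fold change was 2.70 and its adjusted p 0.312 (edgeR, Benjamini-Hochberg over the genes tested). A call on 3 counts in the siAATF group is weak, and it was lost when the mitochondrial counts were used for scaling and without siControl replicate 2 or 3.

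At an unadjusted p under 0.05, 12.6% of all genes and 3 of the 33 mitochondrial genes passed, the others being MT-ND4L and MT-ATP8, both lower. The log2 fold change of MT-ATP8 was -0.97 (SE 0.27, edgeR unadjusted p = 0.00258, adjusted p = 0.148) and that of MT-ND4L -1.22 (SE 0.38, unadjusted p = 0.00617, adjusted p = 0.188). With scaling by mitochondrial counts neither stayed under 0.05 (unadjusted edgeR p of 0.234 and 0.0824), nor with limma-voom (0.202 and 0.174). The log2 fold changes of MT-ATP8 and MT-ND4L were then -0.67 and -0.96 with that scaling and -0.88 and -1.26 with limma-voom. MT-ND4L also missed a p under 0.05 when siAATF replicate 1 or siAATF replicate 2 was left out, with unadjusted edgeR p-values of 0.0775 and 0.0700, and its log2 fold change ran from -0.82 to -1.91 over the libraries left out. At an adjusted p under 0.05, 0.141% of all genes (30) and 0 of the 33 mitochondrial genes passed in this fit, and DESeq2 also gave 0. Other settings passed different genes: limma-voom passed 10, all tRNAs with 60 or fewer counts in total, and edgeR with no filter on low counts passed 10 protein genes, all lower. Of the 10 tRNAs, 8 had 0 counts in all 3 siAATF libraries, and their fitted log2 fold changes were above 0 by limma-voom and below 0 by edgeR, so that no direction can be read from them. Without siControl replicate 1, MT-ATP8 and MT-ND4L passed, both lower, and without siControl replicate 2, MT-TN and MT-TC passed, both higher. The share called (1 of 33), that at p under 0.05 (3 of 33) and that after adjustment (0 of 33) were each near the share of all genes, so that these counts are no result about the mitochondrial genes. Per human count, MT-ATP8 stood at 715, 1221 and 840 CPM in siControl and 395, 456 and 697 in siAATF, so that its highest siAATF library was just under its lowest siControl library, whereas MT-ND4L, at 1022, 2106 and 1536 and at 400, 507 and 1265, overlapped.

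The remaining protein and rRNA genes had log2 fold changes between -0.68 (MT-CO1, adjusted p = 0.416 by edgeR) and 0.093 (MT-ND6, adjusted p = 0.828). Over the 15 genes the median log2 fold change was -0.52, and 14 of the 15 were below 0, which is -0.33 relative to the median of all genes. Without siControl replicate 2, the library with the highest mitochondrial share, the median over the 15 genes was 0.10 and 6 of the 15 were below 0. The value relative to all genes was then 0.27, and it was -0.014 without siAATF replicate 1, -0.13 without siAATF replicate 2, -0.61, -0.55 and -0.57 without siControl replicate 1, siControl replicate 3 and siAATF replicate 3, 0.026 with no filter on low counts and -0.069 with scaling by mitochondrial counts, so that neither its direction nor its size was stable. MT-RNR1 and MT-RNR2, with log2 fold changes of -0.058 and -0.085, lay close to 0 and changed sign with the scaling.

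The tRNA genes gave few counts, and 3 of them held nearly all. The cysteine tRNA MT-TC (chrM:5761-5826) was counted 3521, 5026 and 5520 times in the siControl and 52, 51 and 121 times in the siAATF libraries. The proline tRNA MT-TP (chrM:15956-16023) had 2674, 4342 and 4688 and then 29, 24 and 59, and the asparagine tRNA MT-TN (chrM:5657-5729) had 2242, 3279 and 3540 and then 51, 36 and 61. Together these 3 genes held 93.0% of all tRNA counts, and between 92.9 and 96.4% in every library. The tyrosine tRNA MT-TY followed with 1240 counts over the 6 libraries and the leucine tRNA MT-TL1 with 692, and the other 17 had totals of 2 to 238 counts with a median of 23. Mature tRNAs are short and lack a poly(A) tail, and the sources used here do not say how the cDNA was primed, so that these counts cannot be read as amounts of mature tRNA.

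The abundant tRNA genes shared their strand and their place. The 4 with the most counts are all on the minus strand, and the 8 minus-strand tRNA genes together held 96.4% of the tRNA counts. MT-TN and MT-TC lie on either side of a stretch of 31 bases without a gene, MT-TY borders a stretch of 12 bases, and MT-TP is the last gene before the control region, the part of the molecule without genes. Place alone did not mark them, since MT-TK on the plus strand borders a stretch of 25 bases and had 51 counts, and MT-TF, the first gene after the control region, had 14. The other 4 minus-strand tRNA genes had 51 counts (MT-TE), 9 (MT-TS1), 6 (MT-TQ) and 2 (MT-TA). The 7 tRNA genes with no gap to either neighbor had 16 to 238 counts. The sources used here do not say whether read strand entered the counting, so reads of the opposite strand in these places cannot be told apart from tRNA transcripts.

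The tRNA share of mitochondrial counts was 0.309, 0.230 and 0.239% in siControl and 0.331, 0.471 and 0.430% in siAATF, with means of 0.260% ± 0.0432 and 0.410% ± 0.0718 (SD, n = 3 each), which did not overlap (exact permutation p = 0.1). The difference lay in MT-TC, with shares of 0.120, 0.0851 and 0.0892% in siControl and 0.126, 0.205 and 0.204% in siAATF, and in MT-TN, with 0.0764, 0.0555 and 0.0572% and then 0.123, 0.145 and 0.103%. MT-TP, at 0.0911, 0.0735 and 0.0758% and at 0.0701, 0.0966 and 0.0994%, overlapped. In the fit across all human genes the log2 fold changes were 0.53 for MT-TC, 0.57 for MT-TN and -0.21 for MT-TP, with edgeR adjusted p-values of 0.553, 0.462 and 0.818. For the low tRNAs the siAATF libraries were too shallow: 12 of the 22 had 0 counts in all 3 siAATF libraries, which allows levels of up to 7.18 to 11.6 human CPM per library, while the same 12 genes reached at most 0.546 CPM in siControl. A difference in these genes was not detectable at this depth.

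**Figure D4:**
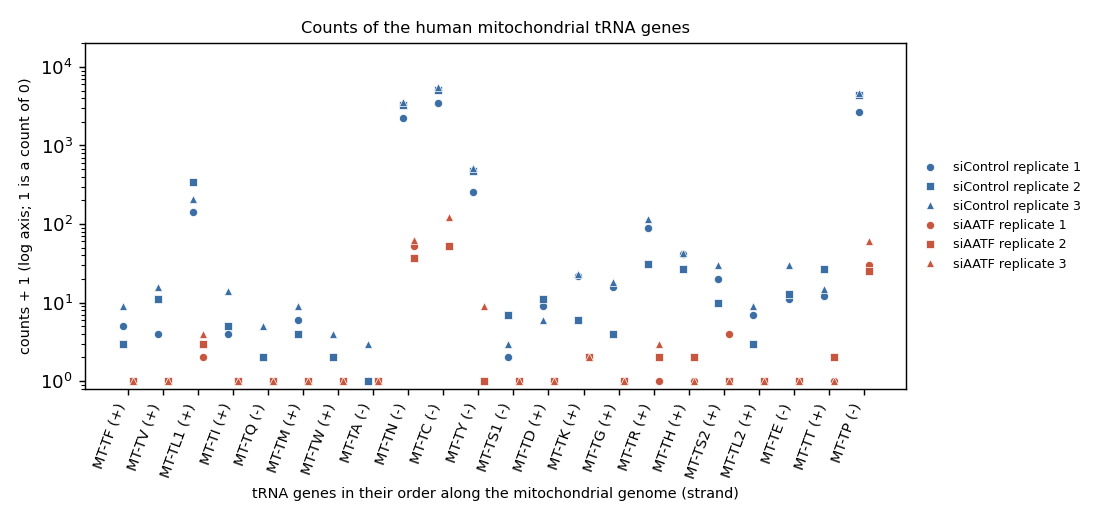
Counts plus 1 (log axis) of the 22 tRNA genes in their order along the mitochondrial genome, with the strand in parentheses and 1 point per library. MT-TN, MT-TC and MT-TP stand above all other tRNA genes in each library, and 12 genes are at 0 in every siAATF library.

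Since mouse counts outnumbered human counts in the siAATF libraries, each human gene was set beside its mouse counterpart. In those libraries the human genes fell into 2 sets. MT-CO2, MT-ATP8, MT-ATP6, MT-CO3, MT-ND3 and MT-ND4L had 33.1 to 354 human counts per 100 counts of the mouse gene, and the other 9 protein and rRNA genes had 0.115 to 1.74. The first set was made by low mouse counts, with 6 genes that took only 0.195, 0.116 and 0.122% of mouse mitochondrial counts in siAATF. Their mouse share was as low in siControl, at 0.130, 0.191 and 0.158%, and the groups overlapped. Why these mouse counts were low in both groups was not tested. The same 6 genes took 27.8, 30.5 and 29.0% of human mitochondrial counts in siControl and 30.1, 27.7 and 27.8% in siAATF, which overlapped. The set was named after these values were seen.

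The human make-up in the siAATF libraries was closer to that of the human genes in siControl than to that of the mouse genes in the same libraries. Over the 15 protein and rRNA genes, Pearson's r of the log2 shares with the siControl human mean was 0.953, 0.972 and 0.988 for siAATF replicates 1, 2 and 3, while r with the mouse shares of the same library was 0.618, 0.629 and 0.612. These 15 genes share a transcript and are not independent, so that r is a description. The root mean square difference in log2 share was 0.596, 0.427 and 0.248 from the siControl human mean and 4.79, 5.22 and 5.18 from the mouse shares, and for each siControl library set against the mean of the other 2 it was 0.273, 0.295 and 0.11. Most of the distance from mouse came from the 6 genes with low mouse counts: with shares taken within the other 9 genes, which was chosen after seeing the data, the difference was 0.479, 0.335 and 0.207 from the siControl human mean and 0.889, 0.717 and 0.794 from the mouse shares. Over these 9 genes r was 0.931, 0.964 and 0.988 with the siControl human mean and 0.747, 0.825 and 0.755 with the mouse. Human mitochondrial counts per 100 mouse mitochondrial counts were 0.378, 0.374 and 0.816 in the siAATF libraries. The part of mouse reads counted as human in the differences described above was not tested.

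**Figure D5:**
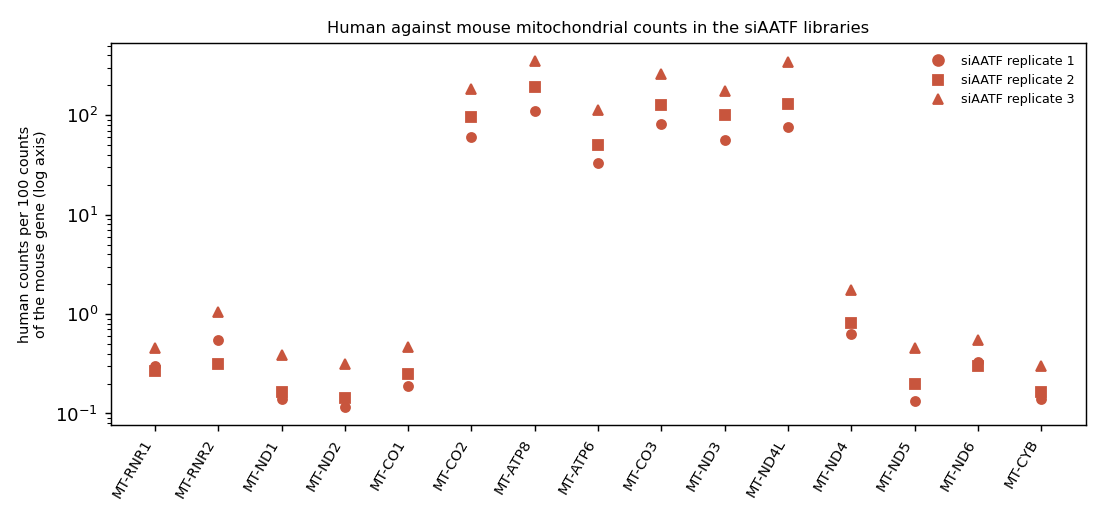
Human counts per 100 counts of the mouse counterpart (log axis) for the 15 protein and rRNA genes in their order along the mitochondrial genome, in the 3 siAATF libraries. The 6 genes from MT-CO2 to MT-ND4L lie at 33.1 to 354 and the other 9 at 0.115 to 1.74.

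Part of the mitochondrial genome has a nearly identical nuclear copy on chromosome 1, and reads that map to several places were discarded by the authors. The human table lists 7 pseudogenes of this copy (GRCh38, chr1:629062-634922), and 6 of them had between 0.000962 and 0.493% of the counts of their mitochondrial counterparts. The exception was ENSG00000248527, the counterpart of MT-ATP6, counted 26501, 61032 and 62380 times in the siControl and 273, 149 and 453 times in the siAATF libraries. It had 13.5, 16.0 and 16.3 counts per 100 counts of MT-ATP6 in siControl and 11.2, 10.1 and 12.04 in siAATF, which did not overlap. The MT-ATP6 values are thus uncertain, since reads of the 2 sequences can be split between them. Counts of the copy cover only reads that map to 1 place. The reads discarded from MT-ATP6 and from the other counterparts, among them MT-CO1, MT-ND2 and MT-ATP8, were not measured. All 7 pseudogenes together had 0.644 to 1.09 counts per 100 mitochondrial counts in the 6 libraries.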

How the data were processed

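The 6 liver libraries were made with the SMART-Seq kit and, per the labels and the study's methods, reads were aligned with STAR 2.7.11 to joined human and mouse genomes, reads mapping to several places or to both species were discarded, and the authors deposited raw counts per gene from featureCounts 2.0.1 (GENCODE v44 and vM33), 1 table per species. Whether strand was used is not given in the sources used here. The human table lists 62753 genes, by identifier only, and 1 entry split by line breaks was dropped. The 37 genes on chrM were named by matching their order, type and strand to the 37 mouse mitochondrial genes, all of which matched. Human nuclear gene lists could not be named and were not used here. Groups came from the sample labels.

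Shares of counts were compared by two-sided exact permutation tests over libraries (scipy 1.17.1), and adjustment over several shares could only raise their p-values. The whole human table was tested with edgeR 4.0.16 (TMM scaling, total of at least 10 counts, group as the only term), with DESeq2 1.42.0, limma-voom (limma 3.58.1), other scalings and filters, a replicate block and each library left out as alternatives; the script was tested on simulated data. The genes named were all protein and rRNA genes, the 5 tRNAs with the most counts and the genes of the chromosome 1 copy. MT-TK and the low tRNAs in the text were named after their values were seen. The members and lists were chosen with earlier results of these data known. Human totals were 27159173 to 53138655 counts in siControl and 258490 to 417614 in siAATF. Intervals are Wilson or exact at 95%, and a count of 0 allows up to 3 counts.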

Additional observations from a re-analysis of the deposited data

How the results depend on the processing

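Of 255 log2 fold changes of the 15 protein and rRNA genes under 17 alternatives, 222 kept their direction, and of 118 gene shares 112 did. The gene shares of the rRNAs, MT-ND4L, MT-ATP8, MT-CO1 and MT-ND2 kept their direction in each alternative run, though over protein genes alone MT-ND2 overlapped while MT-ND3 and MT-ND6 no longer did. As a share of human and mouse counts together, the difference in mitochondrial share was -13.5 points. Counted over protein genes alone, the share differences of MT-ND1 and MT-ATP6 were 0.153 and 0.232 points. With single libraries left out, the difference in mitochondrial share ran from -5.39 to 1.39 points, in complex III share from -0.283 to 0.259, in complex V share from -0.199 to 0.126, in MT-CO3 share from -0.436 to 0.708 and in MT-ND3 share from -0.0197 to 0.0917.

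Human genes called numbered 5691 with no filter, 7 with each library required to hold at least 10 counts, 289 with filterByExpr, 1501 with DESeq2, 6427 with limma-voom, 30 at an adjusted p under 0.05 and 470 to 1005 with single libraries left out, the lowest without siControl replicate 3 (470) and siAATF replicate 1 (494). Mitochondrial genes called numbered 0 with scaling by mitochondrial counts, with that depth filter and at an adjusted p under 0.05, 2 with DESeq2, 10 with limma-voom and 0 to 2 with single libraries left out. At an adjusted p under 0.05, 10 passed with no filter, 10 with limma-voom, and 2 each without siControl replicate 1 and without siControl replicate 2.

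With scaling by mitochondrial counts, log2 fold changes became 0.11 for MT-CO2, 0.0099 for MT-CO3 and 0.064 for MT-ND3. For MT-RNR1 and MT-RNR2 they were 0.097 and 0.069 with RLE scaling, 0.067 and 0.037 with upper-quartile scaling, 0.11 and 0.079 with library size alone, 0.45 and 0.41 with scaling by mitochondrial counts, 0.079 and 0.051 with that depth filter, 0.040 and 0.012 with filterByExpr, 0.096 and 0.069 with DESeq2, 0.16 and 0.11 with limma-voom. With single libraries left out, log2 fold changes ran from -0.82 to 0.12 for MT-ND1, -0.67 to 0.32 for MT-CO2, -0.76 to 0.10 for MT-ATP6, -0.76 to 0.23 for MT-CO3, -0.52 to 0.14 for MT-ND3, -0.078 to 0.40 for MT-ND6, -0.81 to 0.015 for MT-CYB, -0.32 to 0.60 for MT-RNR1 and -0.34 to 0.59 for MT-RNR2. The cause was not tested.

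The replicate numbers did not pair the libraries: over 4243 genes, deviations of same-numbered libraries correlated at -0.18, -0.10 and -0.10, and no library correlated best with its own number. With the replicate block, 400 human genes and 0 mitochondrial genes were called, the log2 fold changes of MT-RNR1 and MT-RNR2 were 0.14 and 0.11, and the edgeR adjusted p was 0.00485 for MT-ATP8 and 3.26e-06 for MT-ND4L. The siAATF depth limits the low tRNAs.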
